A study of Mus musculus with 6 samples.

Results

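The genes described here are 10 liver genes of gluconeogenesis and of the response to fasting, taken by symbol from a table of RNA-seq values for mouse liver tumors. All 10 symbols were found among the 30236 rows of the table. They are Pck1, G6pc, Fbp1 and Pcx, which encode the gluconeogenic enzymes, Tat and Sds, which encode enzymes that break down amino acids, Ppargc1a and Foxo1, which encode transcriptional regulators, Irs2, which encodes an insulin receptor substrate, and Igfbp1, which encodes a secreted binding protein. The tumors came from male C57BL/6 mice, 3 WT and 3 Top1mt-KO (Top1mt -/-), a line that lacks the mitochondrial topoisomerase TOP1MT and was kept by breeding heterozygotes. Mice of both genotypes had been injected with the liver carcinogen diethylnitrosamine at day 14 of life and, from 8 weeks of age, with the liver toxin carbon tetrachloride 2 times a week for 14 weeks, and tumors were taken at 22 weeks of age. Untreated liver and the tissue around the tumors were not analysed here. Whether the mice had been fasted, and the time of day of collection, are not given in the sources used here.

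Gluconeogenesis is the synthesis of glucose from lactate, glycerol and amino acids, and in the fasted animal it takes place mainly in hepatocytes around the portal vein. Glucagon acts through cyclic AMP and CREB, and glucocorticoids act through their receptor, to raise transcription of its genes. Insulin opposes this by AKT, which phosphorylates FOXO1 and moves it out of the nucleus. PGC-1alpha, the product of Ppargc1a, is a coactivator of FOXO1 and HNF4A on these genes.

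The values are log2 expression values that the authors normalized between libraries, here called log2 values, and a difference of 1 between them is a 2-fold difference. The depth of each library is unknown, since log2 values carry none and counts were not analysed here. Genotypes were compared by limma over 22677 genes, once the lowest 25% by mean had been set aside, with Benjamini-Hochberg adjustment over all of them, and all 10 genes were among those tested. The tissue label was checked against fixed markers. The summed level of 6 hepatocyte markers lay between log2 values of 20.98 and 21.79 in every library, against 6.49 to 7.54 for 7 lymphocyte markers. For stellate cell and fibroblast markers the range was 12.76 to 14.41 in WT and 11.92 to 14.10 in Top1mt-KO, and for bile duct markers it was 11.93 to 12.78 and 11.77 to 12.62. The summed endothelial markers spanned 12.53 to 12.73 in WT and 12.56 to 12.89 in Top1mt-KO, the macrophage markers 12.27 to 13.12 and 12.16 to 12.85, and the neutrophil markers 8.31 to 9.78 and 7.86 to 8.51. The sums overlapped between genotypes for each of the 7 marker lists, 0 single markers passed the adjusted threshold, and no marker fell under the filter on low values. The bile duct sum is carried by Spp1, and the single bile duct markers had a median log2 fold change (Top1mt-KO minus WT) of -1.20, with 2 of 6 lower at an unadjusted p under 0.05 by limma, where 2.56% of all genes tested were. Krt19 had -2.68, Krt7 -2.20, Prom1 -1.22 and Epcam -1.19. Krt19 and Epcam were lower without overlap between genotypes, as were 4.33% of all genes tested. The other 2 bile duct markers lay above 0, Sox9 at 0.15 and Spp1 at 0.045. Outside the bile duct list, Ttr of hepatocytes (0.58), Pecam1 of endothelium (0.16) and Cd3g of lymphocytes (0.90) were higher without overlap. Among all genes tested 3.95% were. Cd3e of lymphocytes (-1.03) was lower without overlap. Single markers in this paragraph were named after their values were seen. Prom1 was highest of all 6 libraries in KO 1, at 10.44. Without KO 1, Prom1 had -2.21 and passed the adjusted threshold (limma's adjusted p = 0.0412). Of 4 neutrophil markers 2 were lower at an unadjusted p under 0.05, S100a8 at -1.39 and S100a9 at -1.08, with a list median of -0.89. Cxcr2 had -0.70 and Csf3r 0.15. The count of 2 became 0 without WT 2, WT 3, KO 1 or KO 2, and 1 without limma's trend. Of 7 stellate cell and fibroblast markers 6 had a log2 fold change below 0 and 1, Acta2 at 0.39, above, with a median of -0.41. Of the 7, 1 was lower at an unadjusted p under 0.05 by limma, Lrat at -0.79, where 2.56% of all genes tested were. That count became 0 without WT 1, KO 1, KO 3 or limma's trend. The part of these cells in the values of the 10 genes was not tested. In such bulk tissue fewer cells of a type and less RNA per cell cannot be told apart.

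A pair of libraries called for care. The library labelled WT 2 had a Top1mt log2 value of 5.99, lower than the 6.41 and 6.32 of the libraries labelled KO 2 and KO 3, and the genotype labels were kept as given. In KO 1 the gene Gm42418 took 17.7% of the summed linear values, against at most 0.387% in the others. Fits without them are given beside the results of Pck1, G6pc and several pathway genes. The labels give 3 samples for each genotype without saying that they came from separate animals, so the p-values measure the spread between these samples.

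The promoters shown here are those of Pck1, the gene whose genotypes did not overlap, and of G6pc, Igfbp1 and Irs2, which hold a core of the insulin response element. RefSeq windows (GRCm38.p6) of 250 bases before the transcription start were found for 9 of the 10 genes. Each window was searched on both strands for TGACG (the core of the CREB site), CAAAACA (the insulin response core), GTAAACA (a forkhead core) and AGAACA (a glucocorticoid receptor core), none of which is contained in another. Capitals mark the matches, and bases that GENCODE M21 places inside the gene are left out. The Pck1 stretch is chr2:173152823-173153047 on the + strand, that of G6pc is chr11:101367466-101367560 on the + strand, that of Igfbp1 is chr11:7197537-7197781 on the + strand and that of Irs2 is chr8:11008930-11009179 on the - strand.
Pck1: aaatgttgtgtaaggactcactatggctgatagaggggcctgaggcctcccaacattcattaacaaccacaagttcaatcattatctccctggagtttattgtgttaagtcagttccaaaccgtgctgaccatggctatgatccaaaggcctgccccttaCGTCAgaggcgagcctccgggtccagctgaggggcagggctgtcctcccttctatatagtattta
G6pc: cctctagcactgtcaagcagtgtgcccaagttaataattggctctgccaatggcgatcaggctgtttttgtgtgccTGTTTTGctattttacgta
Igfbp1: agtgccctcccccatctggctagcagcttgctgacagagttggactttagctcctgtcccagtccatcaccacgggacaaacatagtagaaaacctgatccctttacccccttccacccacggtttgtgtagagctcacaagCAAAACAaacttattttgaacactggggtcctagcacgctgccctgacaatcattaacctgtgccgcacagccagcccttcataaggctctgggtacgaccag
Irs2: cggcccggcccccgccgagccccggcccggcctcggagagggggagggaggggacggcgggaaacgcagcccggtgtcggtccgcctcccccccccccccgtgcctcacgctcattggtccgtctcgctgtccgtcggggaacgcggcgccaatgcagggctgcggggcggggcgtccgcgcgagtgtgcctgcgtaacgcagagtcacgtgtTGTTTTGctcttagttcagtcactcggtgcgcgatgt
Distances here are to the RefSeq start, which for Pck1, G6pc and Igfbp1 lies inside the gene as GENCODE M21 draws it. The core TGACG, read as CGTCA, began 90 bases before the start of Pck1 and 49 bases before that of Ppargc1a, and 17.8% of all 32851 RefSeq windows held it. The insulin response core began 174 bases before the start of G6pc (19 before the GENCODE start), 108 before that of Igfbp1 and 37 before that of Irs2, and 5.56% of all windows held it. The forkhead core GTAAACA was in 0 of the 9 genes' windows and in 3.17% of all windows, and the glucocorticoid receptor core was in 0 and in 16.1%. Only these exact letters were counted, so sites with other letters were not covered. These matches describe letters only, and binding was not tested.

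Compared per kilobase of annotated exon, the secreted protein and the enzymes of the pathway were the most abundant transcripts and the regulators the least. The mean length-scaled log2 level over the 6 tumors was 12.76 for Igfbp1, 12.48 for Pck1, 12.43 for Fbp1 and 12.27 for Tat. These neighbours in the order did not separate, since Igfbp1 exceeded Pck1 in 4 of 6 tumors and Pck1 exceeded Fbp1 in 4. G6pc (10.95) and Pcx (10.58) followed, with ranges of 9.77 to 12.01 and 10.08 to 11.02. Sds stood at 8.43, below Pcx in 6 of 6 tumors without overlap. Irs2 (6.68), Foxo1 (6.29) and Ppargc1a (5.43) closed the order, and their neighbouring ranges overlapped. Without scaling by length, the mean log2 values of the 10 genes ran from percentile 78.1 of all genes in the table for Ppargc1a, through 86.2 for Sds, to 99.8 for Pck1.

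Between genotypes, 0 of the 10 genes differed at an adjusted p under 0.05 by limma, where 0% of all genes tested did. At an unadjusted p under 0.05 there were also 0 of the 10, against 4.34% of all genes tested, and the smallest adjusted p among the 10 was 0.999. Log2 fold changes, given throughout as Top1mt-KO minus WT, ran from -0.50 for Pck1 to 0.46 for G6pc. Of the 10 genes, 4 had a value above 0 and 6 below, against 47.7% of all genes tested above 0, with a median of -0.12 beside -0.015 over all genes tested. The median absolute change was 0.21, the same as over all genes tested. The median of the 10 turned to 0.021 without WT 1 and to 0.056 without KO 3. With WT 2 and KO 1 both left out, again 0 of the 10 passed the adjusted threshold. In that fit 1, G6pc, had an unadjusted p under 0.05, against 5.95% of all genes tested. Pck1 alone of the 10 showed no overlap between genotypes, being lower in Top1mt-KO, where 8.28% of all genes tested lacked overlap (3.95% higher and 4.33% lower in Top1mt-KO), a share from which nothing particular to these genes can be read.

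**Figure D1:**
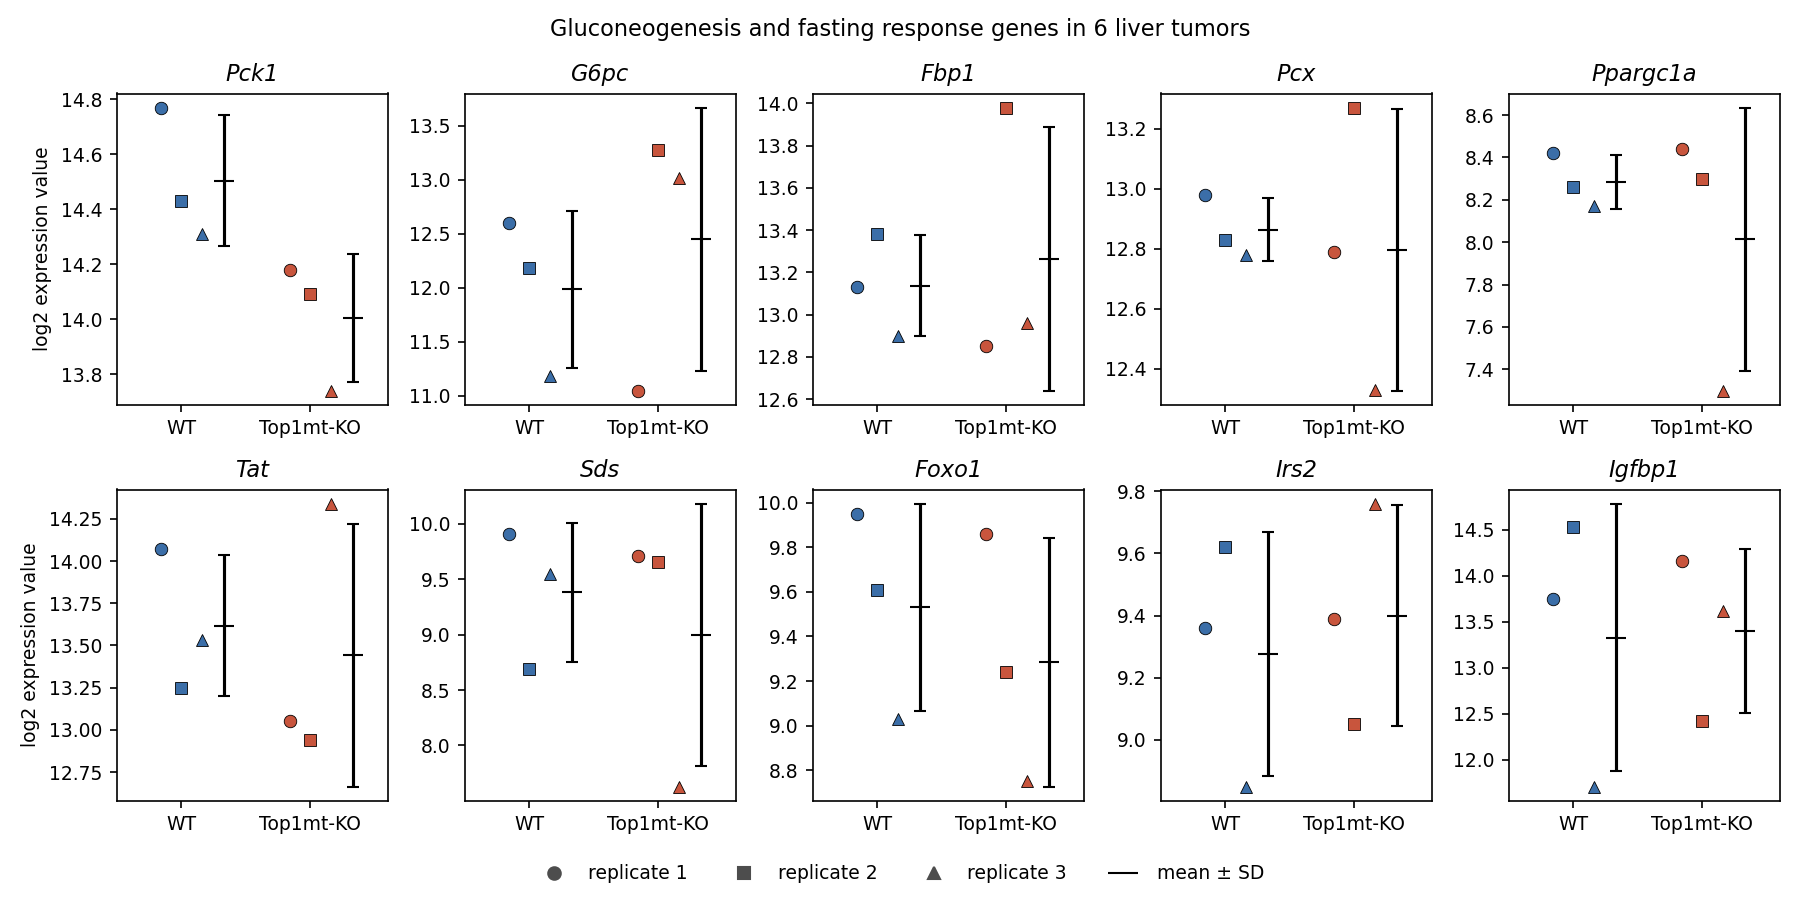
Log2 expression values (y axis, its range set per panel) of the 10 genes in each of the 3 WT (blue) and 3 Top1mt-KO (red) tumors, with marker shapes for replicates and bars for the mean ± SD. Pck1 is the panel in which all Top1mt-KO tumors, at 14.18 or below, lie under all WT tumors, at 14.31 or above, and Igfbp1 shows the widest spread, from 11.71 to 14.53.

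Pck1 encodes the cytosolic phosphoenolpyruvate carboxykinase, which makes phosphoenolpyruvate from oxaloacetate and is a main point of hormonal control (ENSMUSG00000027513, chr2:173153048-173159273, + strand, GRCm38 in GENCODE M21). Its log2 values were 14.77, 14.43 and 14.31 in WT 1, 2 and 3 and 14.18, 14.09 and 13.74 in KO 1, 2 and 3. Every Top1mt-KO tumor thus lay below every WT tumor. The means were 14.51 ± 0.24 (SD, n = 3) and 14.00 ± 0.23 (SD, n = 3). Top1mt-KO differed from WT by -0.50 on the log2 scale (standard error 0.25, 95% interval -1.07 to 0.067), a fold of 0.706 (limma, adjusted p = 0.999, unadjusted p = 0.0764). The exact two-sided permutation test gave p = 0.1, the smallest that 3 against 3 allow. The sign held in each fit that left out a library, with log2 fold changes from -0.60 without WT 3 to -0.37 without WT 1 or KO 3. With both WT 2 and KO 1 left out the value was -0.63. Among genes outside the 10, those whose centred log2 values over the 6 libraries differed least from those of Pck1 were Ankrd12, Stk35 and Cd72, with root mean square differences of 0.076, 0.084 and 0.091. Among the 10 genes the nearest to Pck1 was Ppargc1a at 0.27. Shared control of these genes was not tested.

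G6pc encodes the catalytic subunit of glucose 6-phosphatase, which releases free glucose in the last step of the pathway (ENSMUSG00000078650, chr11:101367561-101377903, + strand). Its log2 values were 12.60, 12.18 and 11.18 in WT 1, 2 and 3 and 11.05, 13.28 and 13.02 in KO 1, 2 and 3. KO 2 and KO 3 were the highest of the 6 tumors while KO 1 was the lowest, so the groups overlapped. Between genotypes it differed by 0.46 on the log2 scale (standard error 0.60, 95% interval -0.93 to 1.85, limma's adjusted p = 0.999). Without KO 1, in which Gm42418 took 17.7% of the summed linear values, it was 1.16. Limma's unadjusted p was then 0.0242 (adjusted p = 0.746), in a fit where 5.98% of all genes tested had an unadjusted p under 0.05. With WT 2 also left out the log2 fold change of G6pc was 1.26. Without KO 2 it was 0.044, without KO 3 it was 0.18 and without WT 3 it was 0.055, so its size moved with single tumors of either genotype.

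The remaining gluconeogenic enzymes overlapped between genotypes. Fbp1 encodes fructose-1,6-bisphosphatase, and its log2 values were 13.13, 13.38 and 12.90 in WT 1, 2 and 3 and 12.85, 13.98 and 12.96 in KO 1, 2 and 3. KO 2 stood above the other 5 tumors, which lay within 12.85 to 13.38. Its log2 fold change was 0.13 (95% interval -0.60 to 0.86). Pcx encodes the mitochondrial pyruvate carboxylase that makes oxaloacetate, and its log2 values were 12.98, 12.83 and 12.78 in WT 1, 2 and 3 and 12.79, 13.27 and 12.33 in KO 1, 2 and 3. KO 2 was the highest and KO 3 the lowest of all 6. Its log2 fold change was -0.07 (95% interval -0.64 to 0.50). The WT tumors varied little for Pcx, with an SD of 0.10 against 0.47 in Top1mt-KO, and the difference in spread was not tested. The sign of Fbp1 turned without KO 2 (-0.23) and that of Pcx without KO 3 (0.16).

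The amino acid enzymes varied more from tumor to tumor than between genotypes. Sds encodes serine dehydratase, which turns serine into pyruvate (ENSMUSG00000029597, chr5:120476526-120483932, + strand). Its log2 values were 9.91, 8.69 and 9.55 in WT 1, 2 and 3 and 9.71, 9.65 and 7.63 in KO 1, 2 and 3. KO 3 lay 4.85-fold below WT 1, and WT 2 was the second lowest. For Sds the log2 fold change was -0.39 (standard error 0.56, 95% interval -1.69 to 0.91), and 0.29 without KO 3. Tat encodes tyrosine aminotransferase, a textbook glucocorticoid-induced enzyme. Its log2 values were 14.07, 13.25 and 13.53 in WT 1, 2 and 3 and 13.05, 12.94 and 14.34 in KO 1, 2 and 3, so KO 3, the lowest for Sds, was the highest for Tat. The log2 fold change of Tat was -0.17 (95% interval -1.10 to 0.76), and -0.62 without KO 3.

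Among the regulators, Ppargc1a and Foxo1 were both lowest in KO 3. The log2 values of Ppargc1a were 8.42, 8.26 and 8.17 in WT 1, 2 and 3 and 8.44, 8.30 and 7.30 in KO 1, 2 and 3. The other 5 tumors spanned no more than 8.17 to 8.44, and KO 3 fell well outside that span. Its log2 fold change was -0.26 (95% interval -0.94 to 0.41), and 0.093 without KO 3. For Foxo1 the log2 values were 9.95, 9.61 and 9.03 in WT 1, 2 and 3 and 9.86, 9.24 and 8.75 in KO 1, 2 and 3. Each genotype had a tumor near the top and a tumor near the bottom of its range. The log2 fold change was -0.25 (95% interval -0.99 to 0.49).

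Irs2 and Igfbp1 encode an insulin receptor substrate and an IGF-binding protein, and both transcripts are known to be lowered by insulin in liver through FOXO1. The log2 values of Irs2 were 9.36, 9.62 and 8.85 in WT 1, 2 and 3 and 9.39, 9.05 and 9.76 in KO 1, 2 and 3. Its log2 fold change was 0.12 (95% interval -0.45 to 0.69). The log2 values of Igfbp1 (ENSMUSG00000020429, chr11:7197782-7202546, + strand) were 13.75, 14.53 and 11.71 in WT 1, 2 and 3 and 14.16, 12.42 and 13.62 in KO 1, 2 and 3. Both genes were lowest in WT 3 and second lowest in KO 2. Igfbp1 differed 7.09-fold between its highest tumor, WT 2, and its lowest, WT 3, which are of the same genotype. Its log2 fold change was 0.072 (standard error 0.72, 95% interval -1.60 to 1.74), and it ran from -0.74 without WT 3 to 0.67 without WT 2. Of all genes tested outside the 10, those nearest to Igfbp1 in centred log2 values were Rgs8, Slc41a3 and Gm8213. Their root mean square differences were 0.31, 0.33 and 0.34. Rgs8, at 0.85 to 4.46, and Gm8213, at 0.76 to 3.64, were near the low end of the scale. Irs2 was the nearest of the 10 genes at 0.74. Such nearness rests on 6 libraries, and shared control was not tested.

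The spread within genotypes set the 10 genes apart from each other more than the genotype did. The within-group SD of Igfbp1 was 1.21, at percentile 97.8 of all genes tested, that of G6pc was 1.01 at percentile 95, and that of Sds was 0.95 at percentile 93.5. Pck1 had the smallest, 0.23 at percentile 27.6, and Pcx (0.34) and Irs2 (0.37) lay near the middle. KO 3 was the lowest tumor for 5 of the 10 genes (Pck1, Pcx, Ppargc1a, Sds and Foxo1) and the highest for 2 (Tat and Irs2). WT 1 lay above a gene's own mean for 9 of the 10 genes and was the highest for Pck1, Sds and Foxo1. KO 2 was the highest for G6pc, Fbp1 and Pcx.

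**Figure D2:**
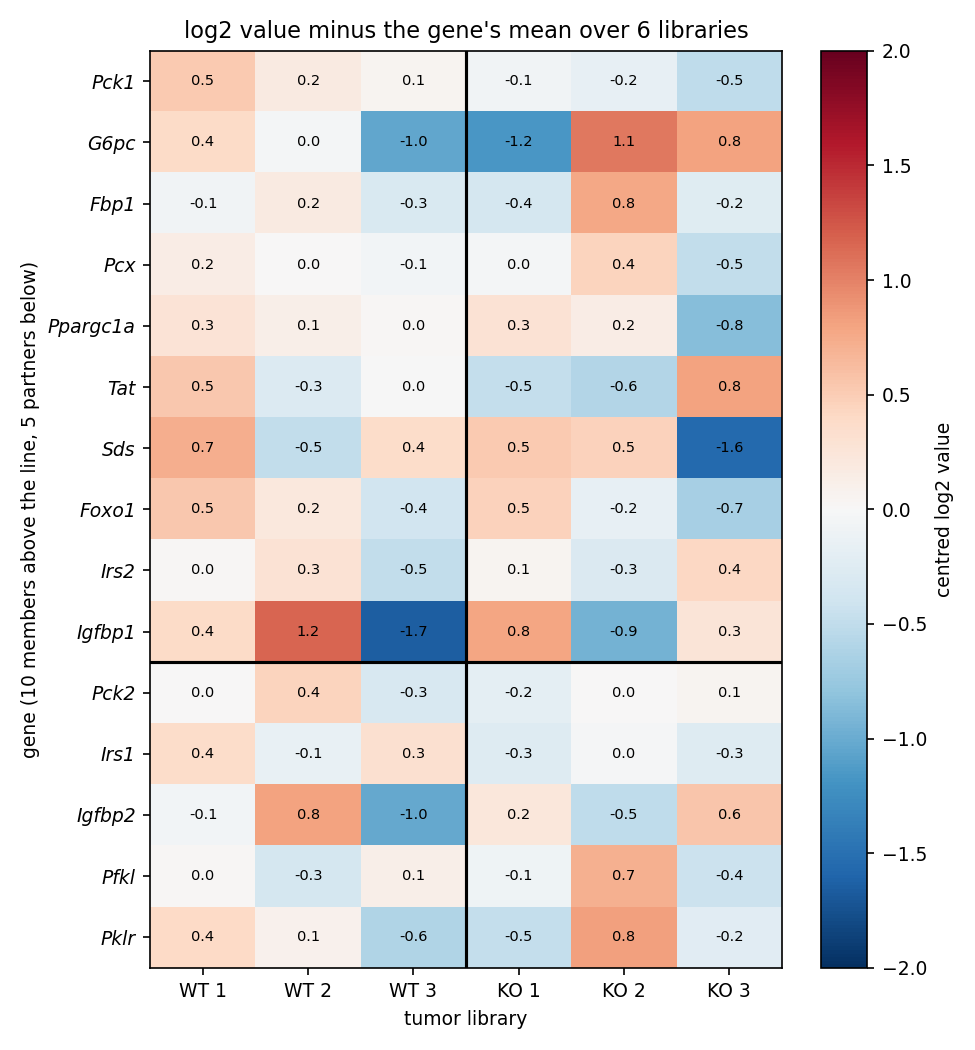
Log2 value of each gene minus its mean over the 6 libraries, for the 10 genes (above the horizontal line) and 5 partner genes used in the differences between paired genes (below it), with WT tumors left and Top1mt-KO tumors right of the vertical line. Sds in KO 3 at -1.56 and Igfbp1 in WT 3 at -1.66 are the deepest blue cells.

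Pairs of genes that act against each other, or that encode related proteins, were compared within each library by the difference of their log2 values, which removes what both genes share in a library. Of 5 such differences, 0 separated the genotypes, and their p adjusted by Benjamini-Hochberg over the 6 computed was 0.6 or higher. Pck1 minus Pklr, the liver pyruvate kinase that consumes phosphoenolpyruvate, gave a genotype difference of -0.59 (p = 0.3 in an exact two-sided permutation test), with 2.94, 2.91 and 3.48 in WT and 3.21, 1.83 and 2.53 in Top1mt-KO tumors 1, 2 and 3. Leaving out KO 2 gave -0.24 and leaving out KO 1 gave -0.93. Pck1 minus Pck2, its mitochondrial counterpart, gave -0.42 (p = 0.3 in the same exact test), and Pck2 alone had a log2 fold change of -0.084. Fbp1 minus Pfkl, the liver phosphofructokinase, averaged 3.51 ± 0.48 in WT against 3.49 ± 0.24 in Top1mt-KO (SD, n = 3 each), a difference of -0.013. Irs2 minus Irs1 was -0.63, 0.14 and -1.10 in WT 1, 2 and 3 and 0.019, -0.57 and 0.39 in KO 1, 2 and 3. The genotype difference was 0.48 (p = 0.4 in the exact test), with 0.20 when WT 3 was left out and 0.81 when WT 2 was. Igfbp1 minus Igfbp2, another binding protein of the liver, gave -0.11 (p = 1 in the exact test). Igfbp2 shared its highest tumor, WT 2, and its lowest, WT 3, with Igfbp1.

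**Figure D3:**
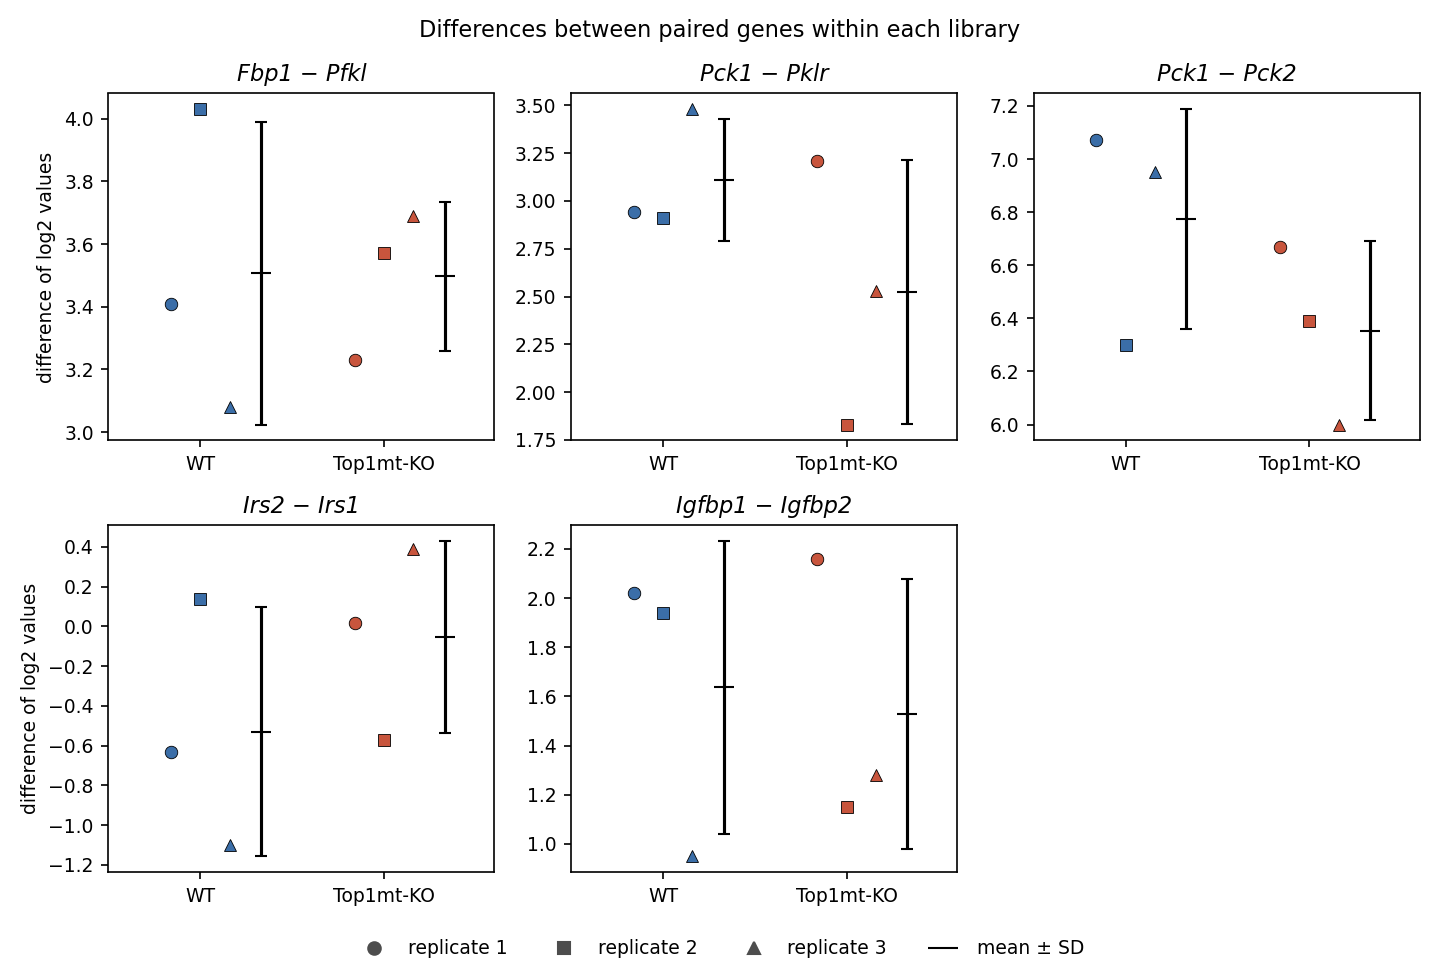
Difference of the log2 values of paired genes within each tumor (y axis, log2 units) for 3 WT (blue) and 3 Top1mt-KO (red) tumors, with marker shapes for replicates and bars for the mean ± SD. The genotypes overlap in all 5 panels, and KO 2 at 1.83 is the lowest tumor for Pck1 minus Pklr.

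Other genes were taken from 8 lists of textbook members, which cover the pathway, its control, fed-state genes and markers of liver zones. Of their 101 tested genes 0 passed an adjusted p of 0.05 by limma, while 12 had an unadjusted p under 0.05, where 4.34% of all genes tested did. Of these 12, 4 were pericentral genes and 1 was a fed-state gene. The count of 12 ran from 6 to 15 over the alternatives, and was 6 without limma's trend. Of 16 further gluconeogenic enzymes, 8 had a log2 fold change above 0 and 8 below, with a median of 0.034, and 1 of 16 had an unadjusted p under 0.05. That gene was G6pc2, a glucose 6-phosphatase catalytic subunit known from pancreatic islets. Its log2 values of 2.86, 1.01 and 3.30 in WT 1, 2 and 3 and 3.81, 3.63 and 4.94 in KO 1, 2 and 3 were near the low end of the scale and did not overlap (log2 fold change 1.74, limma's adjusted p = 0.999). Without WT 2, its lowest tumor, the log2 fold change was 1.05, and without KO 3 it was 1.33, each with an unadjusted p above 0.05 by limma. Fbp2, the muscle bisphosphatase, was also low, at 0.40 to 2.37. The groups also did not overlap for Mdh1, a cytosolic malate dehydrogenase, at a log2 fold change of -0.10, a gene named after its values were seen. Of 13 genes of substrate entry, 1 was higher and 1 lower in Top1mt-KO at an unadjusted p under 0.05, where 1.79% and 2.56% of all genes tested were. The former was the lactate transporter gene Slc16a1 at 0.52, with overlapping groups, a gene named after its values were seen. Its call was lost without WT 1, WT 3, KO 2, KO 3 or limma's trend. The latter was Gpt, which encodes the cytosolic alanine aminotransferase that feeds alanine into the pathway. Its log2 values were 11.84, 11.86 and 11.87 in WT 1, 2 and 3 and 11.56, 11.16 and 10.97 in KO 1, 2 and 3, with no overlap. For Gpt the log2 fold change was -0.63 (limma's adjusted p = 0.999, unadjusted p = 0.00711), from -0.79 to -0.50 with a library left out. Gpt2 of the same list, which encodes another alanine aminotransferase, had -0.0019 with overlapping groups. The log2 values of Gpt2 were higher, at 13.32 to 14.03, and it was named after they were seen. Ldha and Ldhb, the subunits of lactate dehydrogenase, had log2 fold changes of 0.15 and -0.56.

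Of 21 genes of hormone signalling and transcriptional control, 16 had a log2 fold change below 0 and 5 above, with a median of -0.17, and 2 of them had an unadjusted p under 0.05, both lower in Top1mt-KO, where 2.56% of all genes tested were. The log2 fold change was -0.0063 for the glucagon receptor gene Gcgr and 0.044 for the insulin receptor gene Insr. Irs1 had -0.36 with overlapping groups. In 3 of the 21 genes all Top1mt-KO tumors lay below all WT tumors, against 4.33% of all genes tested. These were Cebpb, Ppara and Pik3r1, with log2 fold changes of -0.84, -0.41 and -0.14. The 2 genes with an unadjusted p under 0.05 were Cebpb and Sik1, a kinase gene induced by cyclic AMP, at -0.67, which was -0.44 without KO 1 and -0.43 without WT 3. These 4 genes were named after their values were seen. Cebpb, which encodes a transcription factor known to bind the Pck1 promoter, had log2 values of 9.37, 9.50 and 9.14 in WT 1, 2 and 3 and 8.72, 8.58 and 8.16 in KO 1, 2 and 3 (limma's adjusted p = 0.938).

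Of 14 fasting-induced genes, 6 had a log2 fold change above 0 and 8 below (median -0.078), and the groups overlapped in all 14. The hormone gene Fgf21, named after its values were seen, had 2.05 and was the 1 gene with an unadjusted p under 0.05, a call that was lost without WT 1 (2.16), WT 2 (1.68) or KO 3 (1.17). Pdk4, which spares pyruvate by blocking its oxidation, had 0.64 and Cpt1a of fatty acid import into mitochondria had -0.27, both with overlapping groups. Without WT 2 these were 0.32 and -0.058, and Pdk4 had 1.03 without WT 1. Of 9 glucocorticoid response genes 6 had a value above 0 and 3 below, with a median of 0.16. The phosphatase gene Dusp1, at -0.83 and named after its values were seen, was the 1 gene with an unadjusted p under 0.05. Fkbp5 had 0.032, Tsc22d3 -0.38 and Per1 -0.80, and that of Per1 was -0.015 without KO 3. Of 12 fed-state genes 10 had a log2 fold change above 0 and 2 below, with a median of 0.13, and 1 gene, whose values are not reported here, had an unadjusted p under 0.05. Pfkl had 0.14 and Pklr 0.082, both with overlapping groups.

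The position of hepatocytes between the portal and the central vein, which sets the level of Pck1, G6pc and Sds in normal liver, was followed by markers of each zone. Of 8 periportal genes 5 had a log2 fold change above 0 and 3 below, with a median of 0.27, and 0 had an unadjusted p under 0.05. Cyp2f2, Hal and Hsd17b13 had 0.31, 0.24 and 0.53. Of 8 pericentral genes 7 had a value below 0, with a median of -0.62, and 4 were lower at an unadjusted p under 0.05, where 2.56% of all genes tested were, 0 of them past the adjusted threshold. These 4 were Glul at -0.77, Cyp2e1 at -0.89, and Oat at -1.18 and Slc1a2 at -2.19, the last pair named after their values were seen and without overlap between genotypes. Without KO 1, Glul had -0.44 and Cyp2e1 -0.58, and the count fell to 2 of 8. It was also 2 under the replicate block, under quantile normalization, without limma's trend and with no filter. Leaving out WT 1 or WT 3 gave 2 as well, leaving out KO 2 gave 3, and leaving out WT 2 gave 5. Cyp1a2 had -0.47, which turned to 0.23 without WT 1. The summed level of the 8 pericentral genes was 14.12 to 15.07 in WT and 13.14 to 14.22 in Top1mt-KO, and that of the 8 periportal genes was 16.08 to 16.55 and 16.38 to 16.41, so both overlapped. The part of zonation in the values of the 10 genes was not tested.

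**Figure D4:**
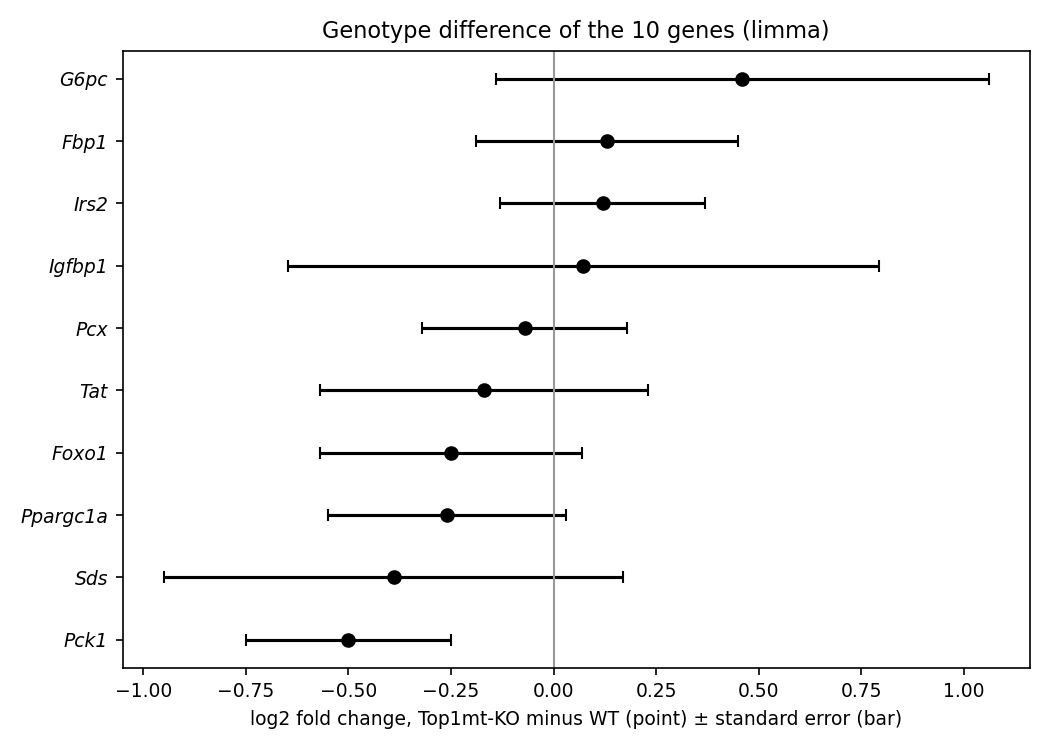
Log2 fold change (x axis, Top1mt-KO minus WT) of each of the 10 genes by limma, with bars for the standard error. The bar of Pck1, at -0.50 ± 0.25, is the 1 bar of the 10 that does not cross 0, and that of Igfbp1 is the widest, with a standard error of 0.72.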

How the data were processed

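RNA was measured by RNA-seq in 6 liver tumor libraries, 3 WT and 3 Top1mt-KO, grouped by their labels. Per gene symbol, the authors gave normalized log2 values, by a transform that is not named, from -2.24 to 22.0 for 30236 rows, of which 26 had symbols turned into dates and 5 symbols were listed more than once. The submitters' processing notes list bcl2fastq 2.17, Trimmomatic 0.36, STAR 2.5.1, Subread, DESeq2 and GRCm38, whereas the study's methods name BWA and another mouse build, so the aligner and build behind the values are unsettled. The 3 columns without a name held 24 cells with the authors' own comparisons and were not used. No counts were used, depth is unknown, and a count test could not be applied. Values that were shrunken by such a transform understate the differences of low genes.

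Genes were compared with limma 3.58.1 (trend, R 4.3.3), leaving out the lowest 25% of gene means, with Benjamini-Hochberg adjustment over 22677 genes at a threshold of 0.05, and the fit was tested on simulated data. Single genes and the 6 differences of paired genes were compared by exact two-sided permutation tests, for which 3 against 3 libraries allow no p below 0.1. Intervals are 95% intervals from limma. Exon lengths and positions came from GENCODE M21, promoter sequences from RefSeq. Genes named by rule were the 10 genes, their pair partners, Top1mt, the first 3 of each of 8 pathway lists found in the table, and the 3 nearest to Pck1 and to Igfbp1. Other genes, among them the single cell type markers, were named after their values were seen. The genes and lists were chosen with earlier results of these data known. Gyk, Rhbg and Tf were not analysed here, and the results of 2 further genes, with 1 of the 6 differences, are not reported here. Alternatives were limma without trend, quantile normalization, no filter, a filter at the median, a replicate block and leaving out each library. Leaving out both WT 2 and KO 1 was chosen after seeing the data.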

Additional observations from a re-analysis of the deposited data

How the results depend on the processing

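Under the 12 alternatives tried, 0 of the 10 genes and 0 of the 101 genes of the 8 lists passed an adjusted p of 0.05 by limma. At an unadjusted p under 0.05 there were 0 to 1 of the 10 genes and 590 to 1356 of all genes tested. The number of genes tested changed with the filter, and the share of them at that threshold ran from 3.32% to 5.98%. Over all genes the count of 0 became 4 with no filter on low values, and 0 to 1 with a library left out (1 without KO 1, the bile duct marker Prom1). The replicate block gave 0 called genes over all genes and 912 at an unadjusted p under 0.05. The labels do not say whether replicate numbers pair the samples. Over all genes tested, the deviations of same-numbered samples correlated at -0.123, -0.0759 and 0.052, which cannot exclude a pairing that acts on few genes. Under the replicate block limma's unadjusted p went from 0.462 to 0.156 for Foxo1 and from 0.458 to 0.0486 for Tsc22d3. For Pck1 it went from 0.0764 to 0.125. Quantile normalization moved the median of all genes by 0.019 and turned Insr to -0.0042. Of the named genes 58 were followed, of which 34 kept their direction throughout, among them Pck1 and G6pc. The other 24 did not, 8 of them among the 10 genes. With WT 2 and KO 1 both left out, Pck2 turned to 0.19, Gcgr to 0.081, Fkbp5 and Hal to -0.26, and Fbp1 minus Pfkl to 0.38. With a library left out in turn, log2 fold changes ran from -0.23 to 0.33 for Fbp1, -0.31 to 0.16 for Pcx, -0.48 to 0.093 for Ppargc1a, -0.62 to 0.078 for Tat, -0.74 to 0.29 for Sds, -0.53 to 0.019 for Foxo1, -0.092 to 0.30 for Irs2 and -0.74 to 0.67 for Igfbp1. They ran from -0.18 to 0.39 for Pfkl, -0.31 to 0.34 for Pklr, -0.27 to 0.11 for Pck2, -0.29 to 0.63 for Igfbp2, -0.057 to 0.31 for Ldha, -0.13 to 0.056 for Gcgr, -0.12 to 0.18 for Insr, -0.38 to 0.32 for Fkbp5, -0.81 to 0.10 for Tsc22d3, -0.25 to 0.87 for Cyp2f2, -0.035 to 0.64 for Hal, -1.16 to 0.23 for Cyp1a2, -0.99 to 0.81 for Rgs8, -0.80 to 0.46 for Slc41a3, -0.21 to 1.22 for Gm8213 and -0.29 to 0.33 for Spp1. The difference Fbp1 minus Pfkl ran from -0.22 to 0.25, Igfbp1 minus Igfbp2 from -0.45 to 0.085, Pck1 minus Pklr from -0.93 to -0.24, Pck1 minus Pck2 from -0.65 to -0.24 and Irs2 minus Irs1 from 0.20 to 0.81. The cause of these turns was not tested. With 3 libraries a group, permutation tests of single genes could not reach 0.05.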
